A study of Mus musculus with 9 samples.

Results

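The genes described here are 10 regulators of histone methylation and of Polycomb silencing, measured in ovulated mouse eggs. They were chosen by name: Ezh2, Eed and Suz12 of Polycomb repressive complex 2, Ring1 and Rnf2 of Polycomb repressive complex 1, the H3K4 methyltransferase Kmt2b, the H3K9 methyltransferases Setdb1 and Ehmt2, the H3K36 methyltransferase Setd2, and the demethylase Kdm4a. All 10 were found among the 30153 genes of the deposited tables. Poly-A RNA was sequenced from hand-picked pools of metaphase II (MII) oocytes, the stage at which a mature egg waits for fertilization. Every group carried the same alleles, Sycp3CreERT2/+ and Rosa26nT-nG/+, on a mixed genetic background. Sycp3 is a gene of the meiotic chromosome axis, and CreERT2 is a Cre recombinase that works only when tamoxifen is present. The nT-nG reporter gives red nuclei until Cre acts on it and green nuclei afterwards. Females were 4 weeks old and received 5 IU of PMSG and, 48 h later, 5 IU of hCG, and eggs were taken 13 h after the second injection. The groups were GFP High (pools of 15, 15 and 16 oocytes), GFP Low (49, 52 and 57) and RFP (88, 87 and 100), with 3 libraries each. Groups therefore differ in pool size as well as in fluorescence. The timing of tamoxifen treatment was not analysed here.

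Polycomb repressive complex 2 places methyl groups on lysine 27 of histone H3 through the SET domain of EZH2 or EZH1, and needs EED and SUZ12 as a scaffold. Polycomb repressive complex 1 attaches ubiquitin to histone H2A through the RING proteins RNF2 (RING1B) and RING1 (RING1A), paired with a PCGF protein. In the growing mouse oocyte these complexes, MLL2 (the product of Kmt2b), SETDB1, G9a (the product of Ehmt2) and SETD2 shape the chromatin that the egg passes on, and several of the transcripts are stored for use after fertilization, before the embryonic genome is switched on.

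Library totals ran from 19381677 to 27746256 counts. The labels do not say whether replicates came from separate animals, so p-values measure the spread between these libraries, which may be technical. The reporter went with the labels: in the authors' deposited table eGFP exceeded its RFP level by a log2 fold change of 6.998 in GFP High and of 5.87 in GFP Low, with 1.12 between the GFP groups. All 10 oocyte markers examined were above 1 FPKM on average (fragments per kilobase of gene, scaled to library size), and their summed level was 5166 to 5853 FPKM in RFP, 5267 to 5713 in GFP Low and 5831 to 6627 in GFP High. Of 16 cumulus and granulosa markers, 5 to 14 per library had more than 3 counts, the limit taken for detection. Nr5a2 and Cyp19a1 held most of those reads in every library. The other 14 markers summed to 315, 1185 and 101 counts in RFP 1, 2 and 3, to 675, 52 and 260 in GFP Low and to 942, 97 and 120 in GFP High, so 1 library in each group held more than the rest. In GFP High 2, Has2, Ptx3, Tnfaip6 and Inha, which mark cumulus and granulosa cells, were at 0. In the same library 5 of the 16 markers had more than 3 counts. Of the 7 blood and immune markers 3 were matched, with 12 to 53 counts in all per library.

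The 10 genes ranged widely in level, and 8 of them were among the more abundant messages of the egg. Averaged over 9 libraries, Ezh2 stood at 127.7 FPKM, which placed it at percentile 98.4 of 18483 protein-coding genes. Suz12 stood at 61.9 FPKM (percentile 95.9), Eed at 59.8 (95.7) and the demethylase Kdm4a at 47.9 (94.4). Rnf2 (31.3 FPKM), Setdb1 (26.2), Setd2 (22.8) and Kmt2b (15.1) followed, the last at percentile 83.9. Ehmt2, at 0.490 FPKM, and Ring1, at 0.111, lay under 1 FPKM, a level that 8918 protein-coding genes reached.

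Neighbours in this order were compared within libraries by their difference in log2(FPKM + 0.1). An exact two-sided sign-flip permutation test was used, with Benjamini-Hochberg adjustment over the 9 neighbouring pairs. The neighbours were set by the means of the same 9 libraries. The p-values therefore describe how steady each difference was between libraries and are not separate support for the order. The smallest p that 9 libraries allow is 0.00391. FPKM divides by all annotated exon bases of a gene: 6678 for Ezh2, 4945 for Suz12, 3828 for Eed and 5782 for Kdm4a. Their principal annotated transcripts hold 2787, 4373, 2067 and 3279 bases in the same order. The order of genes therefore depends on the length used, and an order on transcript length was not tested. Of the 9 pairs, 8 differed on the FPKM scale. Suz12 and Eed did not differ beyond their spread: Suz12 was higher in 7 of 9 libraries, by 0.05 ± 0.19 on the log2 scale (SD, n = 9; exact permutation p = 0.449, adjusted p = 0.449). Setdb1 was higher than Setd2 in 7 of 9 libraries (0.20 ± 0.18 on the log2 scale, exact permutation p = 0.0195, adjusted p = 0.0220). In 6 of the remaining 7 pairs, the gene with the higher mean was higher in 9 of 9 libraries (exact permutation p = 0.00391, adjusted p = 0.00586). Ehmt2 was higher than Ring1 in 8 of 9 (exact permutation p = 0.00781, adjusted p = 0.01004).

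**Figure D1:**
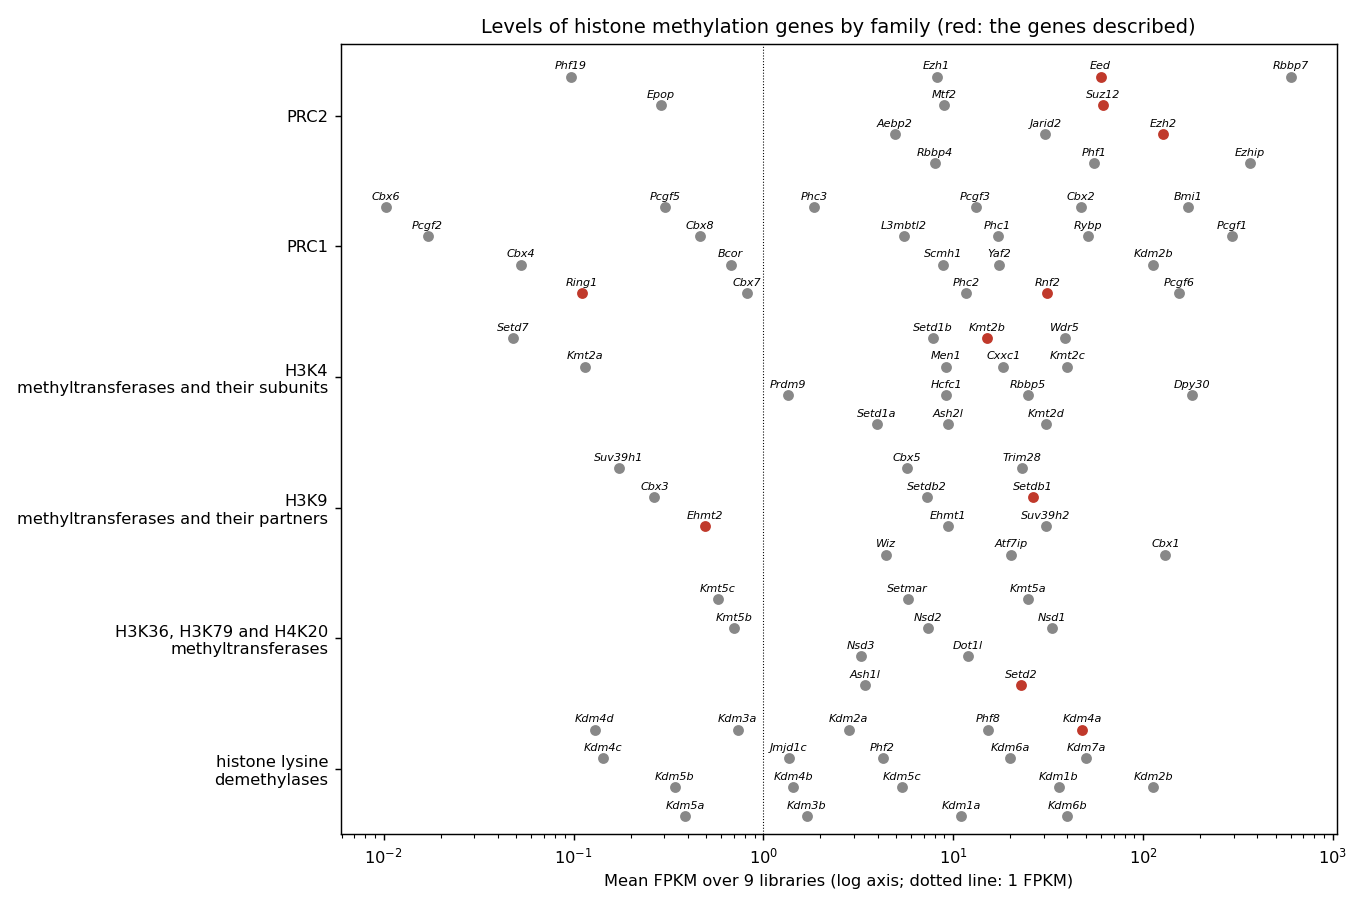
Mean FPKM over 9 libraries (log axis) for genes of 6 families of histone methylation and Polycomb regulators; vertical offsets within a family only separate the labels, and the dotted line is at 1 FPKM. The 10 genes described are in red: 8 lie above the line, between 15.1 FPKM for Kmt2b and 127.7 FPKM for Ezh2, and Ehmt2 and Ring1 lie under it.

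In a pool of whole eggs each value is a share of the poly-A RNA recovered, so fewer oocytes carrying a transcript and less of it per oocyte cannot be told apart. Poly-A capture also reads the stored messages of an oocyte through the length of their tails. In oocytes the tails of stored messages are shortened and lengthened in the cytoplasm. Lengthening during maturation uses a U-rich element near the 3′ end, together with the cleavage signal AATAAA or ATTAAA. The element was searched for only as TTTTAT in DNA letters, and other forms of it were not searched. The last 100 bases of the principal GENCODE M21 transcript of each gene (build GRCm38, sense strand only) were searched for TTTTAT and for the cleavage signal. TTTTAT was found in 5 of the 10 genes, against 13.6% of 18381 genes, and all 5 belong to the 8 that were above 1 FPKM; of all genes at or above that level 15.3% hold it, and of those below it 11.97%. Of 7 related enzymes searched in the same way, Kmt2a, at 0.115 FPKM, holds it, and Suv39h2 (30.9 FPKM), Ehmt1 (9.36 FPKM), Ezh1 (8.18 FPKM), Suv39h1, Kdm4b and Kdm4c do not. The sites are shown with the motif in capitals and 12 bases on either side, to show where the letters lie in these 5 genes. All 5 lie in an exon, in the 3′ UTR as annotated.
Eed, chr7:89954703-89954732, minus strand: aagctgtgttatTTTTATtgtgatggaaac
Kmt2b, chr7:30568905-30568934, minus strand: ttctatgcacttTTTTATttaagagggcgg
Setdb1, chr3:95323553-95323582, minus strand: gacacagtcatgTTTTATttaacctttaat
Setd2, chr9:110618565-110618594, plus strand: ttttactgaactTTTTATgtaaaaaataaa
Rnf2, chr1:151469433-151469462, minus strand: gaatgtatgtgtTTTTATctgtctatggga

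The number of bases between the motif and the 3′ end of the transcript is 61 in Eed, 59 in Kmt2b, 51 in Setd2 and 40 in both Setdb1 and Rnf2. The principal transcript of Rnf2 ends 11401 bases, and that of Kdm4a 5086 bases, before the farthest annotated end of its gene, and the other 8 end within 1 base of it. Ezh2, Suz12, Kdm4a, Ehmt2 and Ring1 do not hold these letters in the window. AATAAA or ATTAAA was found in 9 of the 10 genes (76.8% of all genes), the exception being Rnf2. A match is a run of letters in the annotated end, not a measured site, and the ends used in these oocytes were not measured.

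Ezh2, the catalytic subunit of Polycomb repressive complex 2, was the most abundant of the 10 in every group. Its level on the CPM scale (edgeR's CPM unit, counts scaled to library sizes adjusted by TMM) was 908, 862 and 872 in RFP 1, 2 and 3, 919, 865 and 862 in GFP Low and 787, 766 and 912 in GFP High. GFP High 1 and 2 were the lowest of the 9 libraries, and GFP High 3 lay within the range of the other groups, so the groups overlapped. The fitted log2 fold change was -0.09 (95% interval -0.29 to 0.10) in GFP High and 0.0037 (-0.14 to 0.15) in GFP Low, both relative to RFP, and -0.10 (-0.28 to 0.08) between GFP High and GFP Low.

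Eed, the subunit that binds the H3K27me3 mark, read 219, 263 and 249 CPM in RFP 1, 2 and 3, 215, 228 and 201 in GFP Low and 215, 259 and 231 in GFP High. GFP Low held the lowest library and RFP the highest, and each group overlapped the others. The largest of its fitted differences, -0.18 for GFP Low against RFP (95% interval -0.38 to 0.01), had the smallest p of the 9 genes tested there, with an adjusted p of 1.000 by edgeR's quasi-likelihood test. Suz12, the scaffold subunit, read 310, 308 and 361 CPM in RFP 1, 2 and 3, 326, 305 and 274 in GFP Low and 318, 258 and 326 in GFP High. Its lowest library was GFP High 2 and its highest RFP 3.

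Of Ezh2, Eed and Suz12, Ezh2 was the highest in each library. It was above Eed in 9 of 9 libraries, by 1.69- to 2.46-fold in FPKM, and above Suz12 by 1.79- to 2.33-fold. The ratio of Suz12 to Eed ran from 0.770 to 1.18. Ratios between genes, here and below, rest on the annotated exon length of each gene, and ratios on transcript length were not computed. Ezh1, the other catalytic subunit, was 15.6-fold below Ezh2 as a ratio of means, with a range of 11.6 to 18.9 over the 9 libraries. The histone-binding subunit Rbbp7 was the most abundant gene of the complex, at 604.6 FPKM, 75.1-fold above its paralog Rbbp4. Ezhip (listed as AU022751 in the deposited tables), an inhibitor of EZH2, stood at 365.4 FPKM and was above Ezh2 in 9 of 9 libraries, by 2.49- to 3.63-fold.

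Of the E3 ligases of Polycomb repressive complex 1, Rnf2 was by far the more abundant. Rnf2 read 131, 148 and 138 CPM in RFP 1, 2 and 3, 114, 135 and 136 in GFP Low and 118, 125 and 132 in GFP High. The lowest library was GFP Low 1 and the highest RFP 2, and the groups overlapped. Ring1 was found in 10, 2 and 8 reads of RFP 1, 2 and 3, in 2, 4 and 14 of GFP Low and in 0, 34 and 8 of GFP High. It did not pass the limit of 3 counts in GFP High 1, GFP Low 1 and RFP 2; 0 counts in GFP High 1 allow up to 0.0340 FPKM, counting error only. The mean of GFP High (0.179 ± 0.222 FPKM, SD, n = 3) rests on GFP High 2. The ratio of mean FPKM of Rnf2 to Ring1 was 282, and it ran from 71.0 to 694 over the 6 libraries in which Ring1 passed the limit. Bmi1, a PCGF partner, was 5.48-fold above Rnf2, and Pcgf1, the partner in variant complexes and the most abundant gene of its list at 296.1 FPKM, was 9.45-fold above it.

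**Figure D2:**
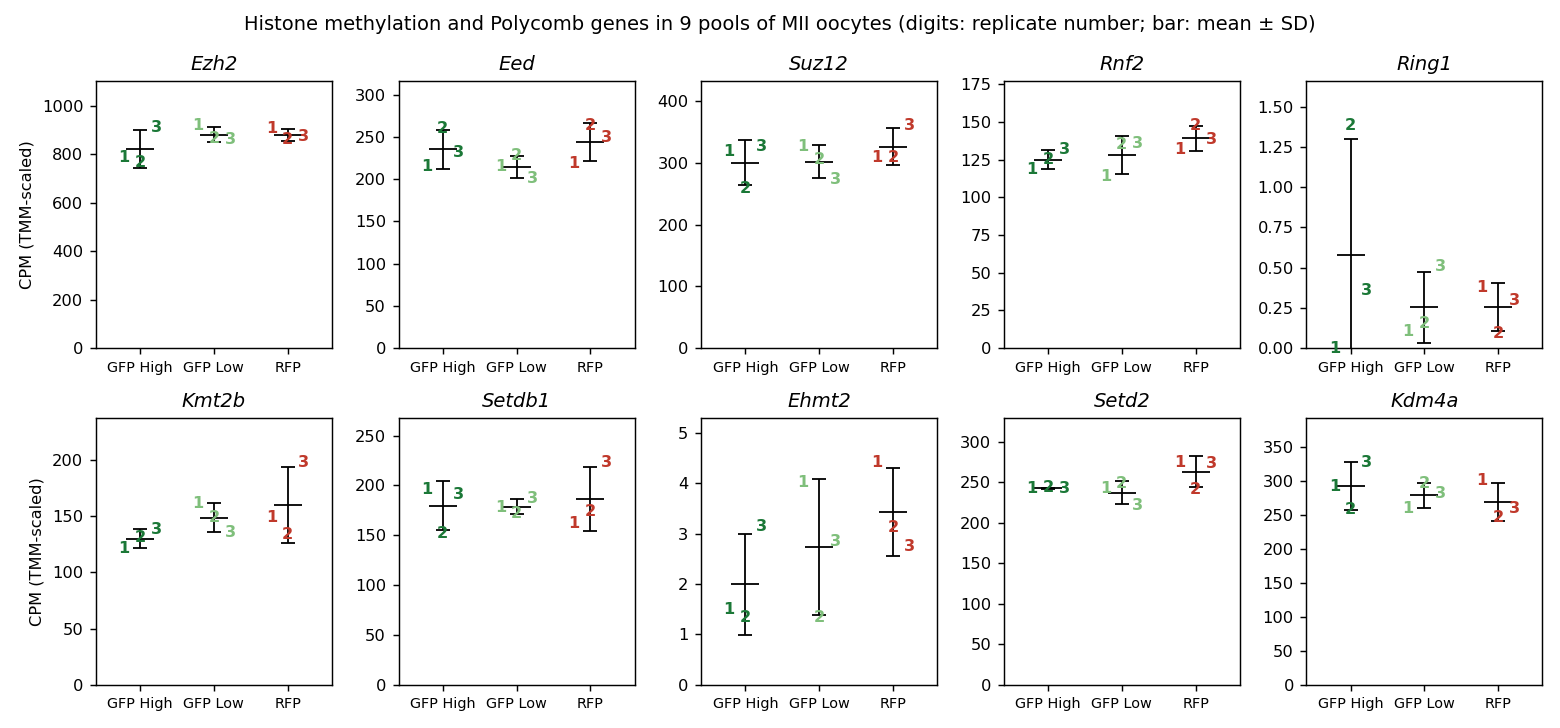
CPM on TMM-scaled library sizes for each of the 10 genes (panels, each with its own axis from 0) in GFP High, GFP Low and RFP; digits are replicate numbers placed at their values, and the bar is the mean ± SD (n = 3), cut off at 0 for Ring1. The groups overlap in every panel, RFP 3 is the highest library for Suz12, Kmt2b and Setdb1, and Ring1 and Ehmt2 are the lowest of the 10.

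Kmt2b encodes MLL2, the enzyme that places H3K4 trimethylation across much of the oocyte genome. It read 149, 133 and 198 CPM in RFP 1, 2 and 3, 162, 149 and 136 in GFP Low and 121, 131 and 138 in GFP High. RFP 3 stood alone at the top, and GFP High 1 was the lowest library. Relative to RFP, the fitted log2 fold change of GFP High was -0.30 (95% interval -0.62 to 0.03, adjusted p = 0.997 by edgeR's quasi-likelihood test). Relative to GFP Low it was -0.19 (-0.43 to 0.04, adjusted p = 0.998 by the same edgeR test). Of the 9 genes tested, Kmt2b had the smallest p in both comparisons. Without RFP 3 the difference between GFP High and RFP was -0.12, and that between GFP Low and RFP turned from -0.10 to 0.08. The coefficient of variation of Kmt2b in RFP was 21.1%, against a median of 7.25% for 606 genes of like level in that group. In GFP High it was 6.51%, against 10.6%. Among the other enzymes of the family, Kmt2a was 131-fold below Kmt2b as a ratio of means. Kmt2a had only 14 to 98 counts a library, and this ratio ran from 57.0 to 483 in single libraries. Kmt2c was 2.65-fold above Kmt2b and Kmt2d 2.04-fold above it. Each of these orders held in 9 of 9 libraries.

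Setdb1, which methylates H3K9 at retrotransposons, read 162, 174 and 223 CPM in RFP 1, 2 and 3, 178, 172 and 187 in GFP Low and 196, 152 and 191 in GFP High. The lowest library was GFP High 2 and the highest RFP 3. Its fitted differences lay between -0.06 and 0.01 on the log2 scale, and Setdb2 was 3.62-fold below it in FPKM.

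Ehmt2, which encodes the H3K9 methyltransferase G9a, was scarce. It was found in 117, 71 and 74 reads of RFP 1, 2 and 3, in 78, 35 and 79 of GFP Low and in 41, 33 and 70 of GFP High, with means of 0.615 ± 0.160, 0.493 ± 0.243 and 0.362 ± 0.180 FPKM in the same order (SD, n = 3). RFP held the highest library, and each group overlapped the others. GFP High 2 had the fewest counts, but GFP Low 2 was the lowest in FPKM (0.2405, against 0.2446 in GFP High 2). The log2 fold change for GFP High against RFP was -0.78 with a 95% interval of -2.10 to 0.55, which spans 0.232- to 1.47-fold. It was -0.33 (-1.21 to 0.55) in GFP Low relative to RFP and -0.45 (-2.001 to 1.10) between GFP High and GFP Low. The coefficient of variation of Ehmt2 between replicates was 50.1% in GFP High, 25.6% in RFP and 49.2% in GFP Low. Ehmt1, which encodes the partner enzyme GLP, was 19.1-fold above Ehmt2 as a ratio of means, and between 11.9- and 48.3-fold above it in single libraries. Of the SUV39H enzymes, which trimethylate H3K9 in heterochromatin, Suv39h2 was 179-fold above Suv39h1 as a ratio of means, and Suv39h1 was at 0 in 1 library.

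**Figure D3:**
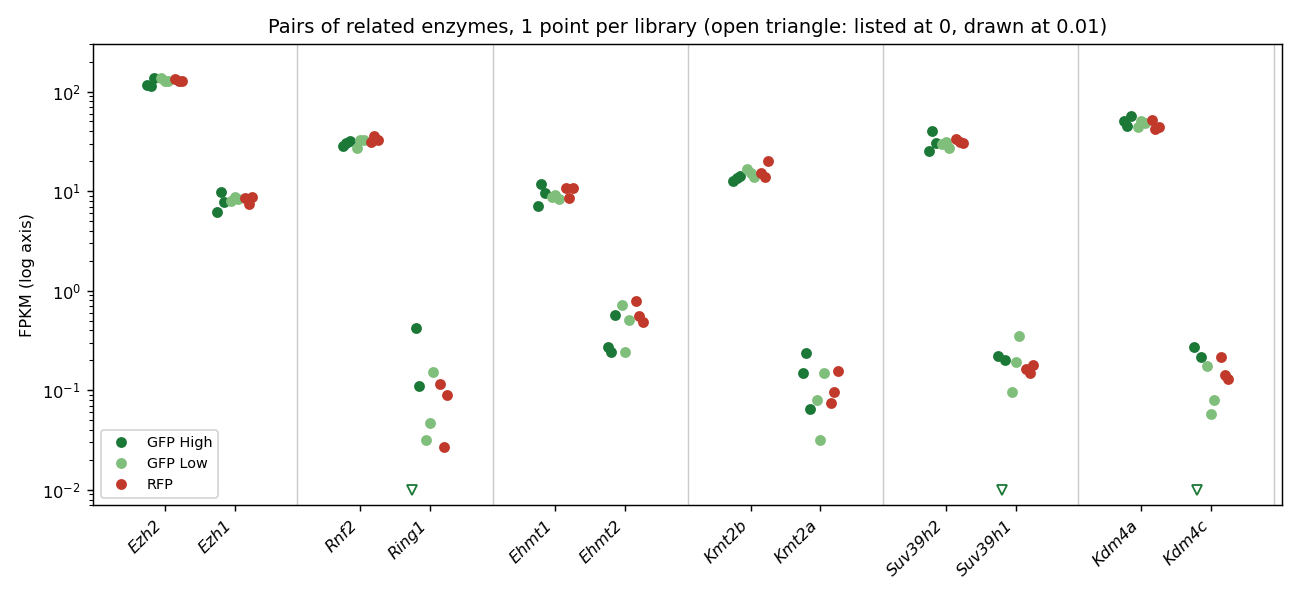
FPKM (log axis) in each of the 9 libraries for 6 pairs of related enzymes; 1 point is 1 library, coloured by group, and open triangles stand for libraries listed at 0. Within each pair the gene named first lies above the second in 9 of 9 libraries, from 11.6-fold at the least for Ezh2 over Ezh1.

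Setd2, the enzyme that trimethylates H3K36 along transcribed genes, read 275, 241 and 274 CPM in RFP 1, 2 and 3, 242, 248 and 222 in GFP Low and 242.6, 243.5 and 242.5 in GFP High. The GFP High libraries lay close together, with a coefficient of variation of 0.238% against a median of 8.91% for 352 genes of like level. This was the smallest such value of any of the genes described in any group, and was singled out after seeing them. Its fitted log2 fold changes were -0.11 (95% interval -0.32 to 0.09) in GFP High and -0.15 (-0.33 to 0.03) in GFP Low, both relative to RFP, and 0.03 (-0.15 to 0.22) between GFP High and GFP Low. Nsd1, the most abundant gene of its list, was 1.45-fold above Setd2 in FPKM.

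Kdm4a, which removes H3K9 and H3K36 trimethylation, read 300, 246 and 259 CPM in RFP 1, 2 and 3, 259, 295 and 282 in GFP Low and 292, 258 and 327 in GFP High. GFP High 3 was the highest library and RFP 2 the lowest. Kdm4a alone of the 9 genes tested had a fitted difference above 0 for GFP High against RFP, at 0.13 (95% interval -0.13 to 0.39). It stood 33.3-fold above Kdm4b and 334-fold above Kdm4c as ratios of means. Kdm4c was scarce, with 0 to 44 counts a library. It was at 0 in 1 library, and the ratio to it ran from 183 to 866 in the others.

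None of the 10 genes was called in any comparison. Each comparison was fitted to all genes of its 6 libraries with edgeR's quasi-likelihood test, and 9 of the 10 genes passed the filter on low counts, Ring1 being the exception. Between GFP High and RFP, 0 of the 9 passed an adjusted p of 0.05, where 0.0135% of all genes tested did, and 0 had an unadjusted p under 0.05, where 4.09% did. Between GFP Low and RFP the counts were 0 and 0, against 0.0197% and 2.62%. Between the GFP groups they were 0 and 0, against 0% and 3.77%. DESeq2 and limma-voom also gave 0 at an adjusted and 0 at an unadjusted p of 0.05 in each comparison. No gene of the 10 had groups that failed to overlap, where 11.8%, 7.68% and 11.5% of all genes tested had such groups in the same order of comparisons. Of all genes tested, the first group lay above the second in 5.04%, 3.62% and 4.79% and below it in 6.8%, 4.07% and 6.7%. The smallest adjusted p of the 9 genes tested was 0.997 by edgeR.

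The width of the intervals says which differences these libraries could have missed. For the 8 genes above 1 FPKM, the 95% intervals together ran from 0.649- to 1.31-fold between GFP High and RFP, from 0.765- to 1.19-fold between GFP Low and RFP and from 0.743- to 1.28-fold between the GFP groups. The narrowest belonged to Ezh2, with half-widths of 0.19, 0.15 and 0.18 on the log2 scale. The median log2 fold change of the 9 genes tested was -0.11, -0.11 and -0.0034, beside -0.0056, -0.0041 and -0.0048 over all genes tested. Of the 9, 8 lay below 0 in GFP High and 7 in GFP Low relative to RFP, and 5 in GFP High relative to GFP Low. Over all genes tested, 7515 of 14829, 7760 of 15199 and 7476 of 14785 lay below 0 in the same order. The comparisons share libraries, so these counts are not separate from one another. Ring1, which was not tested, had a log2 fold change of 1.21 for GFP High against RFP in the authors' deposited table (p = 0.472 there), where GFP High 2 held 34 counts and GFP High 1 and 3 held 0 and 8.

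**Figure D4:**
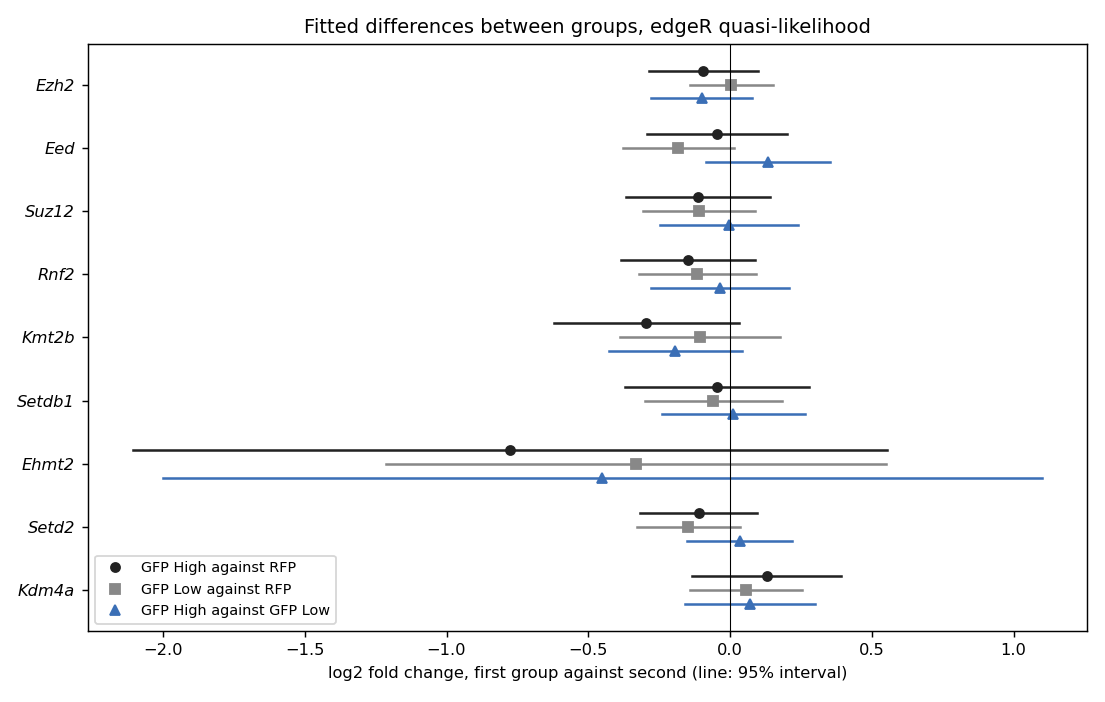
Fitted log2 fold change (x axis) of the 9 genes tested, with circles for GFP High against RFP, squares for GFP Low against RFP and triangles for GFP High against GFP Low; lines are 95% intervals. Every interval includes 0, and those of Ehmt2 are far wider than those of the other 8 genes.

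The wider families gave the same count of calls. The 6 lists of Polycomb, methyltransferase and demethylase genes held 90 genes, of which 85, 85 and 83 were tested in the same order of comparisons. The number with an adjusted p under 0.05 was 0 in each, and the number with an unadjusted p under 0.05 was 4, 2 and 5 (4.71%, 2.35% and 6.02% of those tested), beside 4.09%, 2.62% and 3.77% of all genes tested. By family, 11 of 13 genes of Polycomb repressive complex 2 were at or above 1 FPKM on average, 14 of 22 of Polycomb repressive complex 1, 13 of 15 H3K4 genes, 9 of 12 H3K9 genes, 8 of 10 H3K36, H3K79 and H4K20 genes and 14 of 19 demethylases.

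Between GFP High and RFP the list genes of smallest p were Pcgf5 (log2 fold change -1.64 with an SE of 0.49), Ezhip (0.26, SE 0.087) and Nsd2 (-0.32, SE 0.11), each with an adjusted p of 0.997 by edgeR's quasi-likelihood test. Between GFP Low and RFP they were Phc3 (-0.27, SE 0.12), Phc1 (0.24, SE 0.11) and Eed, each with an adjusted p of 1.000 by edgeR. Between the GFP groups they were Dpy30 (0.30, SE 0.085), Ezhip (0.25, SE 0.082) and Kdm6b (-0.28, SE 0.096), each with an adjusted p of 0.998 by edgeR. Ezhip stood at 341 ± 21.9 FPKM in RFP, 343 ± 25.2 in GFP Low and 412 ± 31.3 in GFP High (SD, n = 3), and its 3 GFP High libraries lay above every library of the other groups. It missed the threshold, as did the rest. Of the 10 oocyte markers, 2 lay above every RFP library and 4 above every GFP Low library in all 3 GFP High libraries, as did 5.04% and 4.79% of all genes tested, and the part of this in the level of Ezhip was not tested. Dpy30, a shared subunit of the H3K4 enzymes, was the most abundant gene of its list at 181.8 FPKM, Cbx1 of the H3K9 list at 131.3 and Kdm2b of the demethylases at 113.1.

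For the 8 well-expressed genes, each library's log2 CPM was set against the mean of all 9. RFP 3 was the highest library for 3 of the 8 (Suz12, Kmt2b and Setdb1), where it was the highest for 18.0% of 5811 genes at 20 CPM or more. GFP High 2 was the lowest for 3 of the 8 (Ezh2, Suz12 and Setdb1), where it was the lowest for 27.2%. The other highest and lowest values were spread over libraries of all groups, and with 8 genes nothing is read from these counts. The largest deviations were those of Kmt2b (0.45) and Setdb1 (0.31) in RFP 3.

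The deviations were also set against gene length. Across genes, which are not independent replicates, Spearman's rho of deviation with gene length was 0.425 in RFP 3, the highest of the 9, and -0.278 in GFP High 2, the lowest. Kmt2b, at 9596 bases of annotated exon, and Setd2, at 10754, are the longest of the 10, and Eed, at 3828, is the shortest of the 8. Among single genes, Eed stood 0.17 above its mean in GFP High 2 and 0.11 above it in RFP 3. Setd2 stood 0.15 above its mean in RFP 3 and 0.02 below it in GFP High 2. The part of length in these differences was not tested. RFP 3 was also among the libraries with the fewest cumulus marker counts, 101 apart from Nr5a2 and Cyp19a1.

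**Figure D5:**
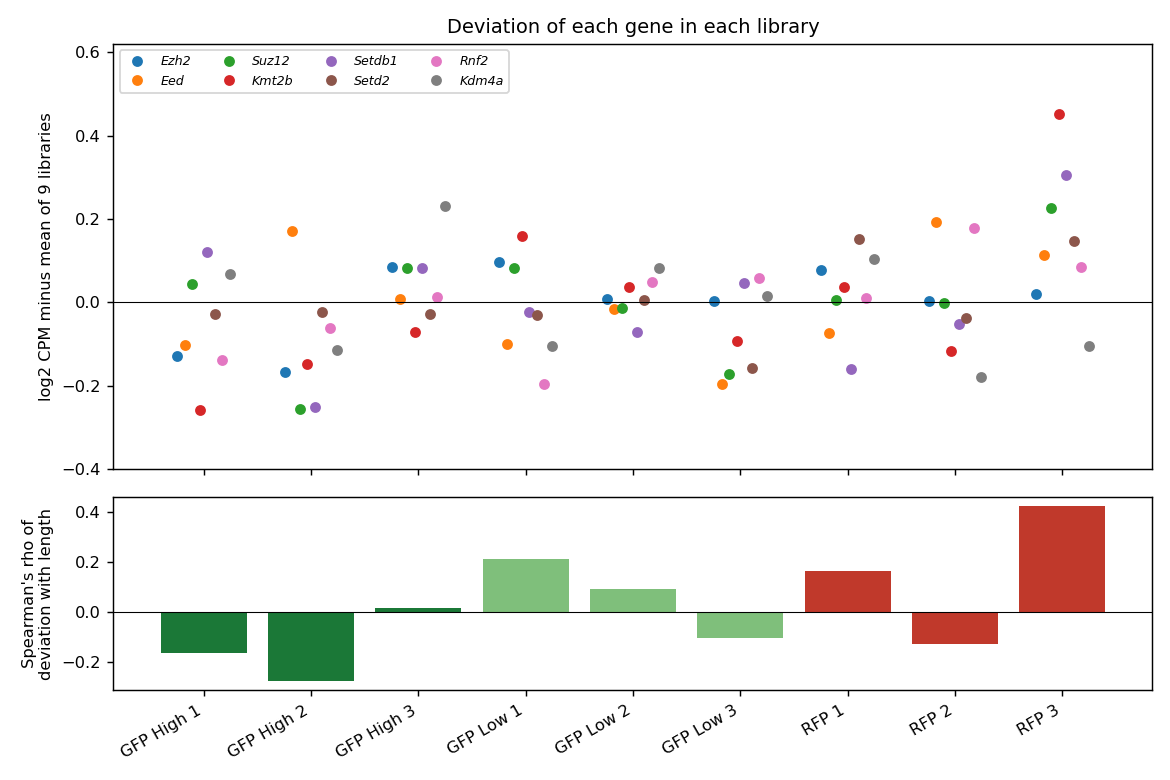
Upper panel, deviation of log2 CPM from the mean of 9 libraries (y axis) for the 8 genes above 1 FPKM, by library; lower panel, Spearman's rho across genes between the deviation and gene length in each library. Kmt2b, Setdb1 and Suz12 are highest in RFP 3, at 0.45, 0.31 and 0.23, where rho is 0.425. Setdb1 and Suz12 are low in GFP High 2, where rho is -0.278, and Setd2, the longest gene, is at -0.02 there. The part of length was not tested.

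The 8 genes did not move as a block from library to library. Pearson's r of log2 CPM over the 9 libraries had a median of 0.132 over their 28 pairs, with a range of -0.512 to 0.730, beside a median of 0.0047 over all pairs of 6062 genes at 20 CPM or more. The gene of most similar pattern was Esrrg for Ezh2 (r = 0.978), Mgat5 for Suz12 (0.974), Psmd2 for Setdb1 (0.946), Usp46 for Kmt2b (0.939), Pou5f1 for Kdm4a (0.924), Cnot6l for Setd2 (0.904), Gk5 for Rnf2 (0.889) and Taf10 for Eed (0.870). The best match of an average gene was as close, with a median best r of 0.949 over all 6062 genes, and all these values share the same 9 libraries and their depths.

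Reads at a few of these loci may belong to a neighbour. Exons of Ezh2, Eed, Suz12, Setdb1 and Rnf2 overlap those of a gene on the opposite strand, by 75 to 261 bases, and whether counting used strand is not given in the sources used here. The highest count of the neighbours analysed, in any library, was 441, for Trmt1l beside Rnf2. Gm26625, beside Ezh2, was not analysed here. Of the start sites, 9 of the 10 genes were matched to RefSeq promoter windows on GRCm38.p6 (250 bases before to 50 after the start, with 2 windows for Ehmt2). All 10 windows had over 50% G and C and an observed-to-expected CpG ratio over 0.6, as did 33.3% of 32851 windows of all genes; the windows of the scarce Ring1 and Ehmt2 met these limits as those of the abundant Ezh2 did.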

How the data were processed

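Poly-A RNA libraries of MII oocyte pools were grouped by the labels into GFP High, GFP Low and RFP (3 libraries each). The tools named in the submitters' processing notes are fastp, HISAT2 2.0.5, featureCounts 1.5.0-p3 and DESeq2 1.20.0, with the build mm10; the annotation and the strand setting are not given in the sources used here. Each pair of groups has a table of its own, 3 in all, deposited by the authors. Per the file headers these hold raw read counts, FPKM values, a normalised signal (counts divided by a size factor, not used here), and the authors' log2 fold change with its p-value and adjusted p-value, given here only with the words "the authors' deposited table". Gene coordinates of the 10 genes equal those of GENCODE M21 on GRCm38.

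The tables were joined by gene identifier. After joining, 178 of 30153 genes had no value for some library and were set to 0 there, none of the 10 among them. The number of per-sample columns assigned to no library was 0. The 10 genes and the lists were chosen with earlier results of these data known. Each comparison was fitted on its 6 libraries with edgeR 4.0.16 under R 4.3.3 (filterByExpr, TMM, glmQLFit and glmQLFTest, no covariate), with Benjamini-Hochberg adjustment over all genes tested and a threshold of 0.05; 95% intervals come from the SE implied by the F statistic. The common biological coefficient of variation was 0.475 between GFP High and RFP, 0.247 between GFP Low and RFP and 0.487 between the GFP groups. CPM values use TMM over all 9 libraries. The genes named are the 10; in each comparison the 3 list genes of smallest p; the most abundant gene of each list; the closest paralogs; and the gene most like each of the 8 well-expressed genes in pattern over the 9 libraries. Replicates differed by more than sampling noise (chi-square per degree of freedom 13.8 to 57.6 over genes of at least 20 counts). There are no molecular identifiers, and a limit taken from a count covers its counting error alone. Correlations of the deviations of same-numbered libraries ran from -0.106 to 0.120. No strong pairing was seen, but this does not settle whether such libraries shared an animal or day. The procedure was run on simulated data for GFP Low against RFP only, with less spread between replicates than these libraries showed. That run does not test it for the GFP High comparisons. Alternatives were DESeq2 1.42.0, limma-voom (limma 3.58.1), other scaling and filters (no filter, or a mean of at least 50 counts), all 9 libraries in 1 fit, bias-adjusted deviances, a replicate block, and leaving out each library.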

Additional observations from a re-analysis of the deposited data

How the results depend on the processing

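The 10 genes gave 0 calls in each comparison under every alternative run, and the smallest adjusted p of the 9 tested was 0.449. Of 432 recomputed log2 fold changes, 403 kept their sign and 29 changed it, and apart from Ehmt2 none of these 29 had a reported value farther from 0 than that of Rnf2 in GFP Low against RFP, -0.12. The count of neighbouring pairs that differ in level was 8 of 9 under each alternative, the 1 FPKM pseudocount included. Each of these used the same gene lengths, so the count cannot show whether the order depends on the length used.

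Over all genes, the calls for GFP High against RFP went from 2 to 12 with DESeq2, 1 with limma-voom, 16 with no filter on low counts and 4 with the replicate block, to between 0 and 2 on leaving out 1 library, and to 0 without the 3 libraries that held most cumulus marker counts (GFP High 1, GFP Low 1 and RFP 2, chosen after seeing the data). For GFP Low against RFP they went from 3 to 10 with DESeq2, 1 with limma-voom and 34 with no filter. For GFP High against GFP Low they went from 0 to 4 with DESeq2, 16 with no filter and between 0 and 1 on leaving out 1 library. The cause was not tested. The replicate block left 3 and 0 calls in the other comparisons and changed no call of the 10 genes. An unadjusted p under 0.05 appeared for 1 of the 10 genes at a time: Kmt2b in GFP High against RFP with no filter, with all 9 libraries, or without RFP 2, Eed in GFP Low against RFP with no filter or without RFP 1, Setd2 there without RFP 2, and Ezh2 in GFP High against GFP Low without GFP High 3.

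Sign changes on leaving out 1 library, as the range of log2 fold change, were as follows. For GFP High against RFP they were -0.13 to 0.0079 for Eed and -0.15 to 0.097 for Setdb1. For GFP Low against RFP they were -0.029 to 0.024 for Ezh2, -0.22 to 0.075 for Kmt2b and -0.15 to 0.089 for Setdb1. For GFP High against GFP Low they were -0.075 to 0.091 for Suz12, -0.064 to 0.11 for Setdb1, -0.018 to 0.062 for Setd2, -0.12 to 0.0028 for Rnf2 and -0.026 to 0.15 for Kdm4a. Without the 3 libraries of most cumulus marker counts, Eed was 0.069 for GFP High against RFP, Ezh2 -0.040 and Rnf2 0.0098 for GFP Low against RFP, and Suz12 0.0094, Setdb1 -0.065 and Ehmt2 0.098 for GFP High against GFP Low. Ezh2 in GFP Low against RFP was -0.0049 with no TMM factors and -0.0035 with no filter. Suz12 in GFP High against GFP Low was 0.0073 with DESeq2, 0.00033 with limma-voom, 0.0068 with DESeq2's size factors and 0.0038 with a mean of at least 50 counts. Depth limits Ring1, which had 0 to 34 counts a library and did not pass the filter. Ehmt2 had 33 to 117 counts and a coefficient of variation between replicates of 50.1% in GFP High, 25.6% in RFP and 49.2% in GFP Low.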
